A study of Mus musculus with 11 samples.

Results

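The genes described here are 39 genes known to respond to androgen, outside lipid synthesis, chosen by symbol from the 48299 genes of the raw table of the series. All 39 symbols were found there. Of these genes, 37 held enough counts to be tested, among 14346 tested genes in all, and Zbtb16 and Azgp1 did not. The libraries are RNA sequencing of oligo(dT)-selected mRNA from the mouse prostate line WFU3, epithelial stem cells kept in culture and harvested a day after plating. The 4 groups are shDouble with 4 libraries, shMap3k7 with 2, shChd1 with 2 and shControl with 3. Lentiviral short hairpin RNAs were aimed at Map3k7 (the kinase TAK1), Chd1 (a chromatin remodelling enzyme) or both, and in shControl at neither. Apart from shControl replicate 1, each library was made in 2 steps. A first lentivirus, which also carries EGFP, brought the Map3k7 hairpin into clones 1 and 7 or a non-targeting hairpin into control clones 4 and 5. A second one, with puromycin resistance, then brought either a Chd1 hairpin or a non-targeting one into these clones. The 4 shDouble libraries are clones 1 and 7, each with Chd1 construct 96526 (replicates 1 and 3) or 96528 (replicates 2 and 4). The 2 shMap3k7 libraries are the same 2 clones with the non-targeting puromycin construct. Both shChd1 libraries are control clone 4 with construct 96526 (replicate 1) or 96528 (replicate 2). The shControl libraries are control clone 4 (replicate 2) and control clone 5 (replicate 3), each with the non-targeting puromycin construct and at passage 52, and a line with control hairpins in a puro and a neo vector at passage 30 (replicate 1, named pn). The other libraries were at passages 47 to 52. Every library thus carries lentiviral hairpins, and every library with the Map3k7 hairpin comes from 1 of 2 clones, so that an effect of the hairpin and a property shared by both clones cannot be told apart. Nothing in the labels says that libraries of a line came from separate cultures, so p-values measure the spread between these samples only, which may in part be technical. The tests count each library as a replicate, although the 4 shDouble libraries come from 2 clones and both shChd1 libraries from 1 clone. Their p-values can thus be too small for an effect of a hairpin. No alternative analysis left out both shDouble libraries of a clone.

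Steroid hormone receptors, once their hormone binds, leave their chaperones, enter the nucleus and bind DNA at pairs of a short half-site, in prostate often beside the pioneer factor FOXA1. In prostate luminal cells androgens drive secretory, glycosylation and transport genes, and prostate cancers are treated by withdrawing androgen. Glucocorticoids act through the same DNA element and share several of these target genes, among them Fkbp5, Sgk1 and Klf9. The labels name no androgen or glucocorticoid treatment, and what supplements the growth medium held is not given in the sources used here.

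Receptor half-sites, AGAACA on either strand (the reverse complement is TGTTCT), were searched in RefSeq promoters on GRCm38.p6, each running 250 bases before to 50 after an annotated start. Of the 39 genes, 31 had promoters in the table, 49 in all. The half-site was present for 7 of the 31 genes (22.6%), against 21.3% of the 27025 genes with a promoter, a near equal share. The full palindrome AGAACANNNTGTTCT, which contains a half-site on each strand, was found for 1 of the 31 genes (3.23%), Sgk1. Of the 27025 genes with a promoter, 3 had it (0.0111%). A match is a run of letters and was not tested for binding. Of the 7 genes, 4 were called in at least 1 comparison. In shDouble against shChd1 alone, 59.5% of the 37 tested androgen-responsive genes and 44.8% of all tested genes were called. Whether half-sites bear on the calls was not tested. For each of the 4 genes the 250 bases before 1 annotated start with a half-site are shown. The 4 genes are Sgk1 (a serum and glucocorticoid regulated kinase), Abcc4 (a multidrug resistance transporter), Tsc22d1 (a leucine zipper protein) and Sat1 (a polyamine acetylase). For Sgk1 the start with the palindrome was taken. The Sat1 start is the first of its gene, and the starts of the other 3 genes lie inside the gene, downstream of its first one. The half-sites are in capitals, and positions are counted back from the base before the start, which is -1.
Sgk1, chr10:21993640-21993889, plus strand, half-sites at -242, -189 and -180: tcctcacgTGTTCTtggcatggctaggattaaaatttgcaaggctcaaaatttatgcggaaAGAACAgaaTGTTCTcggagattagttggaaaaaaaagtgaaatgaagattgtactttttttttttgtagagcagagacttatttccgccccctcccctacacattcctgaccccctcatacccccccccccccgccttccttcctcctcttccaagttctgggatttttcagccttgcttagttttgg
Abcc4, chr14:118676932-118677181, minus strand, half-site at -123: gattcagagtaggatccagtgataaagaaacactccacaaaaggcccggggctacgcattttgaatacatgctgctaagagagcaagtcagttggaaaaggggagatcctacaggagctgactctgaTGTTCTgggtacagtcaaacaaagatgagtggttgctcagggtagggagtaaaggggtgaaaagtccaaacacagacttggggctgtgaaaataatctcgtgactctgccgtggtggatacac
Tsc22d1, chr14:76503976-76504225, plus strand, half-site at -137: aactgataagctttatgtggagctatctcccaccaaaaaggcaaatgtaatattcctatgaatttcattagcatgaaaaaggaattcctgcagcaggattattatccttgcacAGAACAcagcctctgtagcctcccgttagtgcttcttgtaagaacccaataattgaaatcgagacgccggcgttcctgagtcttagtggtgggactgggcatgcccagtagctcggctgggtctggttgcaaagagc
Sat1, chrX:155216450-155216699, minus strand, half-site at -191: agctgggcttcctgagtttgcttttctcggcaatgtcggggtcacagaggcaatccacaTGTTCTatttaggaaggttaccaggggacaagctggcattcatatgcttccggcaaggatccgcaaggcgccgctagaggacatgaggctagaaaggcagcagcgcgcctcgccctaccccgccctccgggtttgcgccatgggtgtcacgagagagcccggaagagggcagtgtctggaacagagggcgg

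Expected read counts summed to between 14132371 and 23163709 per library, and the 39 genes held 0.287% to 0.351% of a library. Levels are given as CPM (counts per 1000000 counts of a library, after TMM scaling), which do not correct for gene length. A count of 3 in a library corresponds to 0.133 to 0.217 CPM. The targeted genes followed the labels for Map3k7, with 39.3 to 42.2 CPM in shDouble and 40.1 to 43.0 CPM in shMap3k7, against 124 to 140 CPM in shControl. Chd1 was at 145 and 150 CPM in shChd1 against 195 to 212 CPM in shControl, a fall by 0.46 ± 0.10 on the log2 scale (adjusted p = 0.047, kept in 4 of 17 alternative analyses and lost without any single library but shControl replicate 2). With the line as a replicate block, which sets shChd1 against control clone 4, the value was -0.40 ± 0.11 (adjusted p = 0.134). In shDouble, Chd1 was at 162 to 198 CPM and did not pass the test against shControl (log2 -0.13 ± 0.09, adjusted p = 0.291) or against shMap3k7 at 221 and 238 CPM (log2 -0.30 ± 0.10, adjusted p = 1). Each shDouble library was nonetheless below the shMap3k7 library of its own clone, by 0.16 and 0.44 on the log2 scale in clone 1 and by 0.29 and 0.33 in clone 7 (-0.30 ± 0.08 with the line as a replicate block, unadjusted p = 0.00384, adjusted p = 1). No gene passed the adjustment in that comparison. The epithelial label matched Krt8 (785 to 3940 CPM) and Cdh1 (157 to 798 CPM), but the mature luminal marker Pbsn was at 0 in every library, and none of 10 mouse prostate secretory genes under androgen control could be tested. Fewer cells of a type and less RNA per cell cannot be told apart in these bulk samples.

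Against shControl, the androgen-responsive genes did not move in 1 direction. In shDouble 16 of 37 were called, meaning an adjusted p under 0.05 (43.2%; 23.8% of all tested genes were called), 8 up and 8 down (10.2% of all genes were up and 13.6% down). In shMap3k7 9 were called (24.3%; 11.9% of all tested genes), 4 up and 5 down (4.86% of all genes were up and 7.08% down). In shChd1 3 were called (8.11%; 2.91% of all tested genes), all down (2.24% of all genes were down and 0.662% up). The 3 comparisons share the shControl libraries. The shMap3k7 count was 3 without shMap3k7 replicate 1 and 5 without replicate 2. The shChd1 count was 9 without shControl replicate 2, which is control clone 4, and 0 or 1 without any other library. Over all genes the shChd1 count was 2650 without shControl replicate 2, against 417 with all libraries. The median log2 fold change of the 37 genes was 0.02 in shDouble, 0.04 in shMap3k7 and -0.17 in shChd1, against -0.0015, -0.0086 and -0.0069 over all tested genes. The median size regardless of sign was 0.48 in shDouble against 0.29 over all genes, 0.51 in shMap3k7 against 0.30, and 0.23 in shChd1 against 0.28. Libraries did not overlap with shControl for 15 of the 37 genes in shDouble (32.5% of all genes), 20 in shMap3k7 (42.9% of all genes) and 17 in shChd1 (46.4% of all genes). The 6 libraries of the Map3k7 clones together lay wholly above or below the 3 shControl libraries for 15 of the 37 genes, 8 above and 7 below (28.3% of all genes did so). The heat map of departures shows these genes as rows of 1 colour across the 6 libraries.

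**Figure D1:**
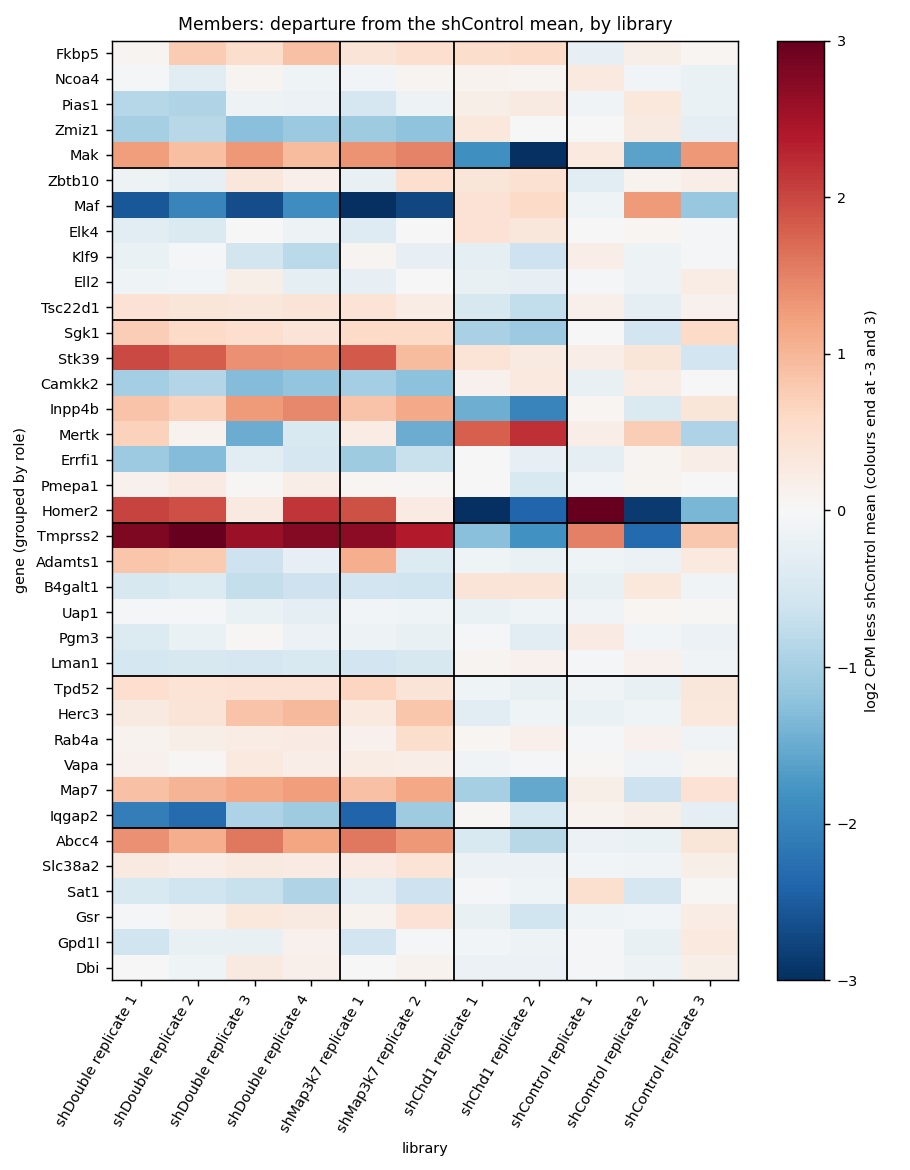
Heat map of the 37 tested androgen-responsive genes (rows, grouped by role and split by black lines) in the 11 libraries (columns, split by group); colour is log2 CPM less the shControl mean, with the scale ending at -3 and 3. Abcc4, Stk39, Inpp4b, Tmprss2 and Map7 are red and Zmiz1, Camkk2, Maf and Iqgap2 blue across the shDouble and shMap3k7 columns, while shControl replicate 2 (control clone 4) is blue at Mak and Tmprss2, as are the shChd1 libraries of the same clone.

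Among the 5 co-factors and modulators of steroid receptors, Zmiz1 fell in both Map3k7 groups, and Fkbp5 was called up in shDouble just inside the threshold. Zmiz1 (chr14:25459185-25666743), a PIAS-like coactivator of steroid receptors, was at 163, 181, 136 and 150 CPM in shDouble and 153 and 141 CPM in shMap3k7, against 328, 390 and 264 CPM in shControl. The highest library of the Map3k7 clones was below the lowest shControl library. Its log2 fold change was -1.05 ± 0.14 in shDouble (adjusted p = 0.00104) and -1.16 ± 0.18 in shMap3k7 (adjusted p = 0.00461), and both calls were kept in all 16 alternatives. In shChd1 Zmiz1 was at 404 and 322 CPM (log2 0.15 ± 0.17, adjusted p = 0.619).

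Fkbp5, a co-chaperone of steroid receptors and a classical target of both androgens and glucocorticoids, was at 10.7, 17.3, 14.6 and 18.8 CPM in shDouble, 13.3 and 14.6 CPM in shMap3k7 and 14.6 and 15 CPM in shChd1, against 8.55, 11.5 and 10.6 CPM in shControl. Its shDouble and shControl ranges overlapped through shDouble replicate 1. The fitted log2 change was 0.59 ± 0.19 in shDouble (adjusted p = 0.0481), a call kept in 2 of 16 alternatives, the DESeq2 test and the fit without shDouble replicate 1, and lost without any other library (log2 values between 0.47 and 0.72, adjusted p up to 0.138). It was 0.45 ± 0.23 in shMap3k7 (adjusted p = 0.218) and 0.53 ± 0.22 in shChd1 (adjusted p = 0.173). Pias1, a SUMO ligase that binds steroid receptors, was at 19.9, 19.1, 32.4 and 31.7 CPM in shDouble, against 40.7 and 43.2 CPM in shChd1 and 33.3, 45.0 and 31.1 CPM in shControl. It was called only against shChd1 (log2 -0.71 ± 0.24, adjusted p = 0.0345), not against shControl (log2 -0.51 ± 0.21, adjusted p = 0.114), and the call was lost without shChd1 replicate 1 or 2 or shDouble replicate 1 or 2 (adjusted p up to 0.159). Ncoa4, a coactivator that also carries ferritin to degradation, was at 38.9 to 59.8 CPM in all libraries, with no call.

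Mak, a kinase first found in male germ cells and an androgen target in prostate cells, differed by line. It was at 14.1, 11.1, 14.7 and 11.5 CPM in shDouble, 15.1 and 16.8 CPM in shMap3k7 and 1.56 and 0.19 CPM in shChd1, against 7.18, 1.87 and 14.7 CPM in shControl. The value of 1.87 CPM is control clone 4, the clone of both shChd1 libraries, and the shControl libraries spanned 1.87 to 14.7 CPM. Mak was called between shDouble and shChd1 (log2 3.86 ± 0.85, adjusted p = 0.00435), not against shControl (shDouble 0.70 ± 0.57, adjusted p = 0.405; shChd1 -3.17 ± 0.85, adjusted p = 0.0676). With all libraries kept, the shChd1 fall was called by the DESeq2 test (adjusted p = 0.000727) and with no filter on low counts (adjusted p = 0.0293). Without control clone 4 among the controls, the shChd1 value was -3.64 (adjusted p = 0.00415), and within that clone it was -1.08 ± 0.66 (adjusted p = 0.462).

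Of 6 tested transcription factors and elongation factors, Maf was the gene with the clearest fall, at low counts. Maf (chr8:115682942-115707794), a basic leucine zipper factor of the AP-1 superfamily, had 20 counts in the 4 shDouble libraries together and 2 in the 2 shMap3k7 libraries, against 112 in the 3 shControl libraries. In CPM these are 0.177, 0.321, 0.156 and 0.357 in shDouble and 0 and 0.145 in shMap3k7, against 1.44, 4.00 and 0.66 in shControl. All 6 libraries of the Map3k7 clones lay below all shControl libraries. The log2 fold change in shDouble was -2.99 ± 0.65 (adjusted p = 0.00885), kept in all 16 alternatives with values between -3.41 and -2.03. In shMap3k7 the pooled shControl level was 30.6 times the shMap3k7 level (95% counting interval 8.26 to 255), with an adjusted p of 0.0195 that was lost without either shMap3k7 library (adjusted p up to 0.135). The counting interval covers counting error only.

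Tsc22d1, a leucine zipper protein induced by TGF-beta, was at 207, 196, 193 and 200 CPM in shDouble, 204 and 179 CPM in shMap3k7 and 110 and 92.2 CPM in shChd1, against 171, 125 and 167 CPM in shControl. The shDouble libraries were all above shControl and the shChd1 libraries all below. It was called up in shDouble (log2 0.37 ± 0.12, adjusted p = 0.0448) and down in shChd1 (log2 -0.61 ± 0.14, adjusted p = 0.05 as rounded, below the threshold). The shDouble call was kept in 6 of 16 alternatives and lost without any library but shControl replicate 1 or 3 (adjusted p up to 0.127). The shChd1 call was kept in 4 of 17 and lost without any library but shControl replicate 2 (adjusted p up to 0.446). The library of 125 CPM is again control clone 4, and within that clone the Chd1 difference was -0.30 ± 0.11 (adjusted p = 0.231).

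Elk4, an ETS factor that is an androgen target in human prostate cancer, was at 45.6, 42.6, 57.6 and 51.2 CPM in shDouble against 77.3 and 73.0 CPM in shChd1. It was called in that comparison alone (log2 -0.61 ± 0.14, adjusted p = 0.00466, kept in all 16 alternatives), while shControl held 55.4 to 59.8 CPM (shDouble against shControl log2 -0.22 ± 0.12, adjusted p = 0.214). Zbtb10, a zinc finger repressor, Klf9, a Krüppel-like factor that glucocorticoids induce, and Ell2, a subunit of elongation complexes, had no call. Their levels ran from 21.0 to 37.2 CPM, 5.53 to 11.2 CPM and 36.8 to 52.6 CPM. Zbtb16, the zinc finger gene PLZF and a strong hormone target in other tissues, had 0 counts in all 11 libraries.

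Among the 8 kinases, phosphatases and signalling adaptors, Stk39 and Inpp4b rose and Camkk2 fell in both Map3k7 groups, and Errfi1 fell in shDouble. Stk39 (chr2:68210445-68472268), a Ste20-type kinase that regulates ion cotransporters, was at 43.9, 38.8, 28.7 and 27.9 CPM in shDouble and 39.5 and 21.2 CPM in shMap3k7, against 12.6, 14.2 and 7.37 CPM in shControl. Every library of the Map3k7 clones was above every shControl library, and clone 1 was above clone 7. On the log2 scale the change was 1.61 ± 0.28 in shDouble (adjusted p = 0.00322, kept in all 16 alternatives) and 1.41 ± 0.32 in shMap3k7 (adjusted p = 0.0202). The shMap3k7 call was lost without shMap3k7 replicate 1, the higher clone, or in a fit of the compared groups alone (adjusted p up to 0.195).

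Camkk2 (chr5:122731170-122779409), a calcium-dependent kinase upstream of AMPK and an androgen target in human prostate cancer cells, was at 30.4, 33.8, 25 and 27.5 CPM in shDouble and 30.8 and 26.4 CPM in shMap3k7, against 53.3, 72.8 and 61.9 CPM in shControl. The 2 sets of libraries did not overlap. It changed by -1.10 ± 0.13 on the log2 scale in shDouble (adjusted p = 0.000578) and -1.13 ± 0.17 in shMap3k7 (adjusted p = 0.00372), with both calls kept in all 16 alternatives. In shChd1 it was at 67.5 and 76.1 CPM (log2 0.20 ± 0.16, adjusted p = 0.47).

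Inpp4b (chr8:81342556-82127914) is a lipid phosphatase that limits AKT signalling and is androgen-induced in human prostate cells. The gene was higher in the Map3k7 clones than in shControl and lower in shChd1. It was at 119, 107, 159 and 178 CPM in shDouble, 119 and 144 CPM in shMap3k7 and 23.6 and 16.6 CPM in shChd1, against 68.5, 48.6 and 85.2 CPM in shControl. The shControl libraries lay between the Map3k7 clones above and the shChd1 libraries below, with no overlap. The log2 change was 1.06 ± 0.23 in shDouble (adjusted p = 0.00925, kept in all 16 alternatives), 0.96 ± 0.27 in shMap3k7 (adjusted p = 0.0417, kept in 7 of 16) and -1.74 ± 0.29 in shChd1 (adjusted p = 0.0286, kept in 9 of 17). Within control clone 4 the Chd1 difference was -1.27 ± 0.19 (adjusted p = 0.0174). That clone has a single library without a Chd1 hairpin, so the standard error does not measure the spread of such libraries. The shMap3k7 call was lost without either shMap3k7 or either shChd1 library, shControl replicate 1 or 2, or shDouble replicate 1 or 3 (adjusted p up to 0.199). The shChd1 call was lost without either shChd1 or either shMap3k7 library, shControl replicate 1 or 3, or shDouble replicate 1 (adjusted p up to 0.42).

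Errfi1 (chr4:150853919-150868892), a feedback inhibitor of the EGF receptor, was at 40.8, 35.4, 68.9 and 61.5 CPM in shDouble and 41.4 and 55.3 CPM in shMap3k7, against 72.2, 92.4 and 100 CPM in shControl. The call was made in shDouble (log2 -0.78 ± 0.23, adjusted p = 0.0316), with shMap3k7 at -0.87 ± 0.28 (adjusted p = 0.0693). The shDouble call was lost without shControl replicate 2 or 3, without shDouble replicate 1 or 2, or in a fit of the compared groups alone (adjusted p up to 0.0882). Sgk1 was at 498, 449, 422 and 389 CPM in shDouble, 449 and 448 CPM in shMap3k7 and 153 and 141 CPM in shChd1, against 300, 201 and 445 CPM in shControl. It was called between shDouble and shChd1 (log2 1.58 ± 0.26, adjusted p = 0.000927, kept in all 16 alternatives). Against shControl it did not pass in shDouble (log2 0.48 ± 0.21, adjusted p = 0.127) or in shChd1 (log2 -1.10 ± 0.26, adjusted p = 0.0518), where the value within control clone 4 was -0.45 ± 0.11 (adjusted p = 0.0899). These calls turned with single controls and, in shChd1, also with the test or filter. Without shControl replicate 3 the shDouble value was 0.81 (adjusted p = 0.00694), and without shControl replicate 2 the shChd1 value was -1.34 (adjusted p = 0.00147). With all libraries kept, the shChd1 fall was called by the DESeq2 test (log2 -1.09, adjusted p = 0.000819) and with no filter on low counts (log2 -1.10, adjusted p = 0.0202).

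Pmepa1, a membrane protein that dampens TGF-beta and androgen signalling, was at 381 to 439 CPM in shDouble against 373 and 268 CPM in shChd1 (log2 0.37 ± 0.13, adjusted p = 0.0359). The shControl libraries were at 350 to 393 CPM, and shChd1 replicate 2 stood alone at 268 CPM. Without it the difference was 0.14 (adjusted p = 0.406), and the call was also lost without shDouble replicate 1, 2 or 4 or either shMap3k7 library. Mertk, a receptor tyrosine kinase that clears dying cells, was near the detection limit, with 0 to 0.398 CPM in shDouble against 0.996 and 1.33 CPM in shChd1 (log2 -2.54 ± 0.88, adjusted p = 0.0377, lost in the DESeq2 test, in limma on the deposited log2 values, and without either shChd1 library or shDouble replicate 2, 3 or 4, adjusted p up to 0.194). Homer2, a scaffold of calcium signalling, was at 6.32, 5.88, 1.77 and 6.89 CPM in shDouble and 5.79 and 1.74 CPM in shMap3k7, against 29.5, 0.104 and 0.495 CPM in shControl. The shControl mean rests on replicate 1. With all libraries the log2 fold change was -0.93 ± 1.21 in shDouble (adjusted p = 0.613) and -1.40 ± 1.55 in shMap3k7 (adjusted p = 0.592), and without shControl replicate 1 it was 4.11 (adjusted p = 0.0137) and 3.64 (adjusted p = 0.0405). That library also stood apart by the endothelial markers Pecam1, Cdh5, Kdr and Tek, which summed to 38.7 CPM against at most 0.498 CPM elsewhere, and by the basal keratin Krt5 at 48.9 CPM against at most 1.93 CPM. Their part in the Homer2 value was not tested.

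**Figure D2:**
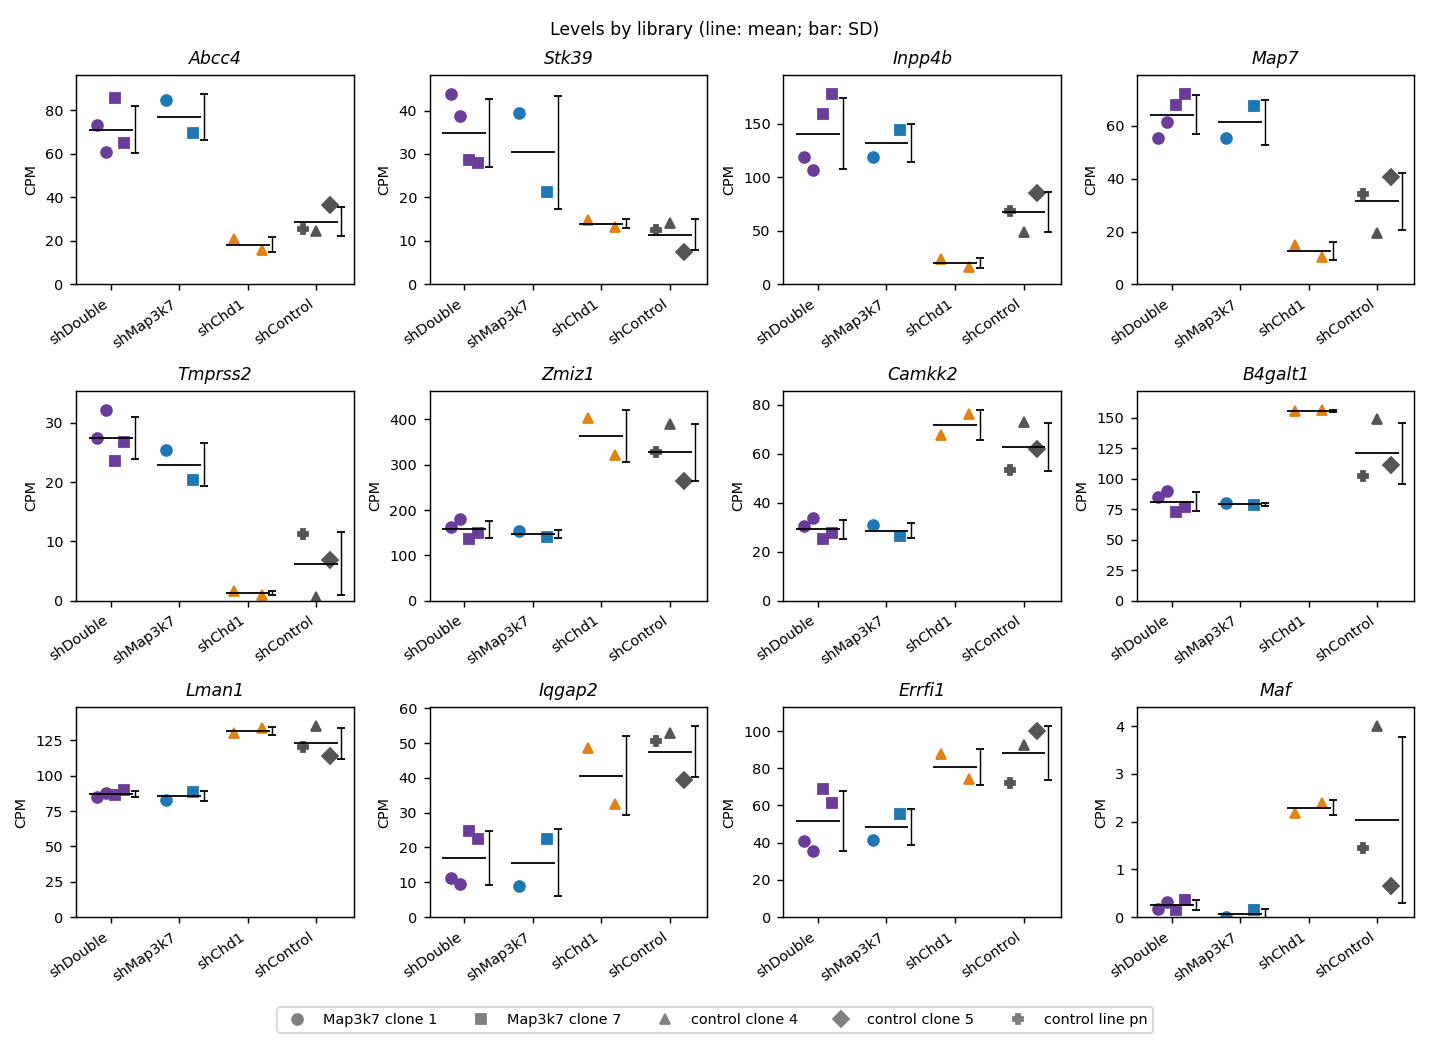
Levels of 12 androgen-responsive genes by library, in CPM from 0, for shDouble, shMap3k7, shChd1 and shControl; points are libraries, shaped by line, horizontal lines group means and bars SD. For Abcc4, Stk39, Inpp4b, Map7 and Tmprss2 all 6 libraries of the Map3k7 clones are above the shControl libraries, and for Zmiz1, Camkk2, B4galt1, Lman1, Iqgap2, Errfi1 and Maf all 6 are below.

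Among the proteases, secreted proteins and glycosylation enzymes, Tmprss2 rose in shDouble and 2 genes of the secretory route, B4galt1 and Lman1, fell in both Map3k7 groups. Tmprss2 (chr16:97564682-97611195), the androgen-induced membrane serine protease that is fused to ERG in many human prostate cancers, was at 27.5, 32.2, 23.6 and 26.8 CPM in shDouble, 25.5 and 20.4 CPM in shMap3k7 and 1.56 and 1.01 CPM in shChd1, against 11.2, 0.675 and 6.87 CPM in shControl. The Map3k7 clones were all above the shControl libraries, which themselves spread widely. The log2 fold change in shDouble was 2.15 ± 0.59 (adjusted p = 0.025), lost without shControl replicate 3, without shDouble replicate 2 or in a fit of the compared groups alone (adjusted p up to 0.0527). In shMap3k7 it was 1.88 ± 0.66 (adjusted p = 0.0875, with 0.0355 without shControl replicate 1, 0.016 without replicate 2 and 0.0495 with no filter on low counts). In shChd1 it was -2.27 ± 0.83 (adjusted p = 0.129; 0.000673 without shControl replicate 2). The library of 0.675 CPM is control clone 4, and against it both shChd1 libraries were higher, by 1.08 and 0.51 on the log2 scale (0.92 ± 0.41 in the fit within that clone, adjusted p = 0.31). The direction for Chd1 thus turned with the control used.

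B4galt1 (chr4:40804602-40854005), a galactosyltransferase of the Golgi, was at 85.1, 90.0, 72.6 and 77.0 CPM in shDouble, 79.9 and 78 CPM in shMap3k7 and 155 and 156 CPM in shChd1, against 102, 149 and 111 CPM in shControl. The log2 fold change was -0.57 ± 0.13 in shDouble (adjusted p = 0.0103, kept in all 16 alternatives) and -0.61 ± 0.16 in shMap3k7 (adjusted p = 0.0317). The shMap3k7 call was lost without either shMap3k7 library, either shChd1 library or shControl replicate 2 (adjusted p up to 0.149). Lman1, a lectin that carries glycoproteins from the endoplasmic reticulum, was at 84.9, 87.6, 86.6 and 89.7 CPM in shDouble and 83.0 and 88.2 CPM in shMap3k7, against 120, 135 and 114 CPM in shControl. The 6 libraries of the Map3k7 clones spanned 83.0 to 89.7 CPM, all below the lowest control. Its log2 fold change was -0.50 ± 0.08 in shDouble (adjusted p = 0.00188, kept in all 16 alternatives) and -0.53 ± 0.10 in shMap3k7 (adjusted p = 0.00898, lost without shMap3k7 replicate 1 or in a fit of the compared groups alone, adjusted p up to 0.0895).

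Uap1 and Pgm3, enzymes of the pathway that makes the sugar donor UDP-GlcNAc, had no call in any comparison, with ranges of 52.7 to 66.2 CPM and 15.3 to 24.3 CPM. Adamts1, a secreted metalloprotease, had no call but split by clone, with 427 and 418 CPM in shDouble and 515 CPM in shMap3k7 for clone 1, 158 and 205 CPM in shDouble and 182 CPM in shMap3k7 for clone 7, and 220, 216 and 298 CPM in shControl. Azgp1, a secreted lipid-mobilising glycoprotein, had at most 1 count in a library and was not tested.

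Among the genes of membrane traffic, ubiquitin and cytoskeleton, Map7 rose in both Map3k7 groups and fell in shChd1, while Iqgap2 fell in shDouble. Map7 (chr10:20148471-20281590), a microtubule-binding protein of epithelial cells, was at 55.5, 61.4, 67.7 and 72.2 CPM in shDouble, 55.4 and 67.4 CPM in shMap3k7 and 14.9 and 10.2 CPM in shChd1, against 34.1, 19.5 and 40.6 CPM in shControl. No group overlapped with shControl, and only shChd1 was below it. The fitted log2 change was 1.03 ± 0.23 in shDouble (adjusted p = 0.01, kept in all 16 alternatives), 0.97 ± 0.26 in shMap3k7 (adjusted p = 0.04) and -1.32 ± 0.29 in shChd1 (adjusted p = 0.0454). The shMap3k7 call was lost without any library but shControl replicate 3 (adjusted p up to 0.198), and the shChd1 call without any library but shControl replicate 2 (adjusted p up to 0.426). Within control clone 4, itself the lowest control at 19.5 CPM, the Chd1 difference was -0.63 ± 0.18 (adjusted p = 0.139).

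Iqgap2 (chr13:95627177-95891922), a scaffold of actin signalling, was at 11.1, 9.50, 24.8 and 22.5 CPM in shDouble and 8.84 and 22.4 CPM in shMap3k7, against 50.6, 52.9 and 39.3 CPM in shControl. All 6 libraries lay below the controls, clone 1 farther than clone 7. On the log2 scale the change was -1.49 ± 0.38 in shDouble (adjusted p = 0.0174, 0.0532 without shControl replicate 2) and -1.61 ± 0.48 in shMap3k7 (adjusted p = 0.0539). Tpd52, a trafficking protein often amplified in human prostate cancer, was at 181, 170, 172 and 171 CPM in shDouble and 198 and 166 CPM in shMap3k7, against 119, 108 and 160 CPM in shControl. Its rise in shDouble (log2 0.43 ± 0.13, adjusted p = 0.0342) was kept in 7 of 16 alternatives, and lost without any shDouble or shChd1 library or without shControl replicate 1 or 2 (adjusted p up to 0.12). In shMap3k7 the Tpd52 change was 0.50 ± 0.15 (adjusted p = 0.0542). It was called there by the DESeq2 test (0.0158), by limma (0.0483) and without shControl replicate 3 (0.0054). Herc3, a ubiquitin ligase, was at 37.9, 40.6, 56.5 and 61.0 CPM in shDouble against 24.7 and 28.7 CPM in shChd1 (log2 0.87 ± 0.24, adjusted p = 0.0147, lost without either shChd1 library), with 27.2 to 39 CPM in shControl (shDouble against shControl log2 0.63 ± 0.21, adjusted p = 0.0524; 0.0304 without shControl replicate 3). The Herc3 difference from shControl was also called by the DESeq2 test (adjusted p = 0.0206), with no filter on low counts (0.0361) and without shDouble replicate 1 (0.0372). Rab4a, a GTPase of recycling endosomes, and Vapa, an endoplasmic reticulum tether, had no call, at 8.14 to 12.7 CPM and 99.1 to 131 CPM.

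Of 6 genes of transport and metabolism, Abcc4 rose in both Map3k7 groups and Sat1 fell in shDouble. Abcc4 (chr14:118482692-118706219) was at 73.1, 60.9, 85.6 and 64.9 CPM in shDouble, 84.5 and 69.4 CPM in shMap3k7 and 20.7 and 15.7 CPM in shChd1, against 25.2, 24.7 and 36.5 CPM in shControl. The lowest library of the Map3k7 clones was above the highest control. Means were 71.1 ± 10.9 CPM in shDouble (SD, n = 4) and 76.9 ± 10.7 CPM in shMap3k7 (SD, n = 2), against 28.8 ± 6.69 CPM in shControl (SD, n = 3). The log2 change was 1.3 ± 0.18 in shDouble (adjusted p = 0.00107) and 1.42 ± 0.21 in shMap3k7 (adjusted p = 0.00336), both kept in all 16 alternatives, and -0.66 ± 0.22 in shChd1 (adjusted p = 0.103).

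Sat1, the enzyme that acetylates spermidine and spermine for breakdown, was at 48.5, 44.0, 41.5 and 35.4 CPM in shDouble, against 91.7, 46.5 and 67.9 CPM in shControl, where control clone 4 at 46.5 CPM overlapped shDouble. The log2 fold change in shDouble was -0.70 ± 0.20 (adjusted p = 0.0277), lost without shControl replicate 1 or 3, without shDouble replicate 3 or 4, or in a fit of the compared groups alone (adjusted p up to 0.0991). In shMap3k7 Sat1 was at 52.3 and 43.2 CPM (log2 -0.52 ± 0.24, adjusted p = 0.179, and 0.0388 without shControl replicate 2). Slc38a2, an amino acid transporter, and Gsr, glutathione reductase, were called only between shDouble and shChd1. Slc38a2 was at 316 to 332 CPM in shDouble against 246 and 244 CPM in shChd1 (log2 0.42 ± 0.10, adjusted p = 0.00664, lost without either shChd1 library, adjusted p up to 0.0601). Gsr was at 118 to 152 CPM in shDouble against 105 and 81.0 CPM in shChd1 (log2 0.56 ± 0.16, adjusted p = 0.0179, and 0.194 without shChd1 replicate 2). Gpd1l, a glycerol phosphate dehydrogenase-like enzyme, and Dbi, the acyl-CoA binding protein, had no call, at 47.7 to 88.3 CPM and 89.5 to 122 CPM.

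**Figure D3:**
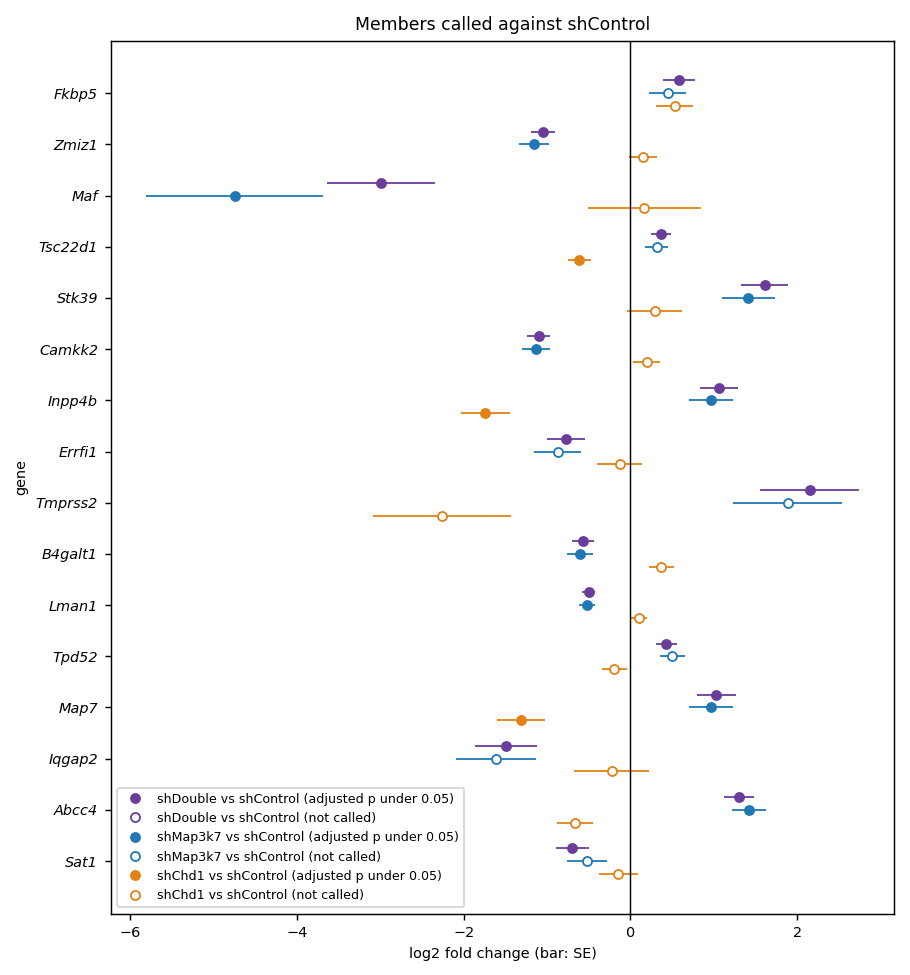
Fitted log2 fold change (x axis) with SE bars against shControl for the 16 androgen-responsive genes called in at least 1 of the 3 comparisons (rows); purple is shDouble, blue shMap3k7 and orange shChd1, filled where the adjusted p was under 0.05. The purple and blue points lie on the same side for each gene, and the filled orange points at Tsc22d1, Inpp4b and Map7 lie on the other side; Maf in shMap3k7 rests on 2 counts.

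Per length, taken as CPM per kilobase of merged exons, the most abundant of these genes in shControl were Pmepa1 at 75.4, Dbi at 71.0, Sgk1 at 64.3, Adamts1 at 46.1 and Gsr at 44.4. Tmprss2 was far down this order, at 3.77 CPM per kilobase in shDouble and 0.857 in shControl. Fkbp5 was at 1.62 CPM per kilobase in shDouble and 1.08 in shControl. The lowest tested genes were Mertk at 0.0553 and Maf at 0.246 in shControl.

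Lines of the same group also differed from each other. Clone 1 and clone 7, with 3 libraries each, had non-overlapping levels for 21 of the 37 genes, 10 higher and 11 lower in clone 1 (45.4% of all tested genes did so). Among those of the 21 genes above 5 CPM in every library of both clones, the largest difference was in Adamts1, with 453 ± 53.4 CPM in clone 1 and 181 ± 23.4 CPM in clone 7 (SD, n = 3 each), a ratio of 2.50. Iqgap2 followed with a ratio of 0.422, Errfi1 with 0.633, Stk39 with 1.57, Pias1 with 0.665 and Herc3 with 0.674. Abcc4 at 72.8 ± 11.8 CPM in clone 1 and 73.3 ± 10.9 CPM in clone 7 (SD, n = 3 each), and Lman1 at 85.2 ± 2.31 CPM in clone 1 and 88.2 ± 1.55 CPM in clone 7, showed overlapping clones.

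Each library with a Chd1 hairpin was compared with the library of the same clone that carries the non-targeting puromycin construct instead, which gives 6 differences for each gene. The median size of these differences over the 37 genes was 0.14 on the log2 scale. Among genes above 5 CPM the largest difference was in control clone 4. Inpp4b was lower there by 1.04 and 1.55 with constructs 96526 and 96528, and Map7 by 0.38 and 0.92, whereas in the Map3k7 clones the Inpp4b differences were between -0.16 and 0.31 and those of Map7 between 0.0033 and 0.15. Tmprss2 was higher in all 6 differences, by 0.11 to 1.08, and Mak and Klf9 were lower in all 6, Klf9 by 0.13 to 0.56. The 6 differences share 1 non-targeting library for each clone and are thus not independent. How many of all tested genes had 6 differences of the same sign was not determined. In control clone 4, Tmprss2 had 25 and 16 counts with a Chd1 hairpin against 13 without. Mak had 25 and 3 counts there against 36. With the line as a replicate block, 1 of the 3 shChd1 calls was kept, Inpp4b, and 2 were lost, Map7 and Tsc22d1. For shChd1 the block rests on a single library of control clone 4 without a Chd1 hairpin. The block cannot be applied to shDouble or shMap3k7 against shControl, which share no line.

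**Figure D4:**
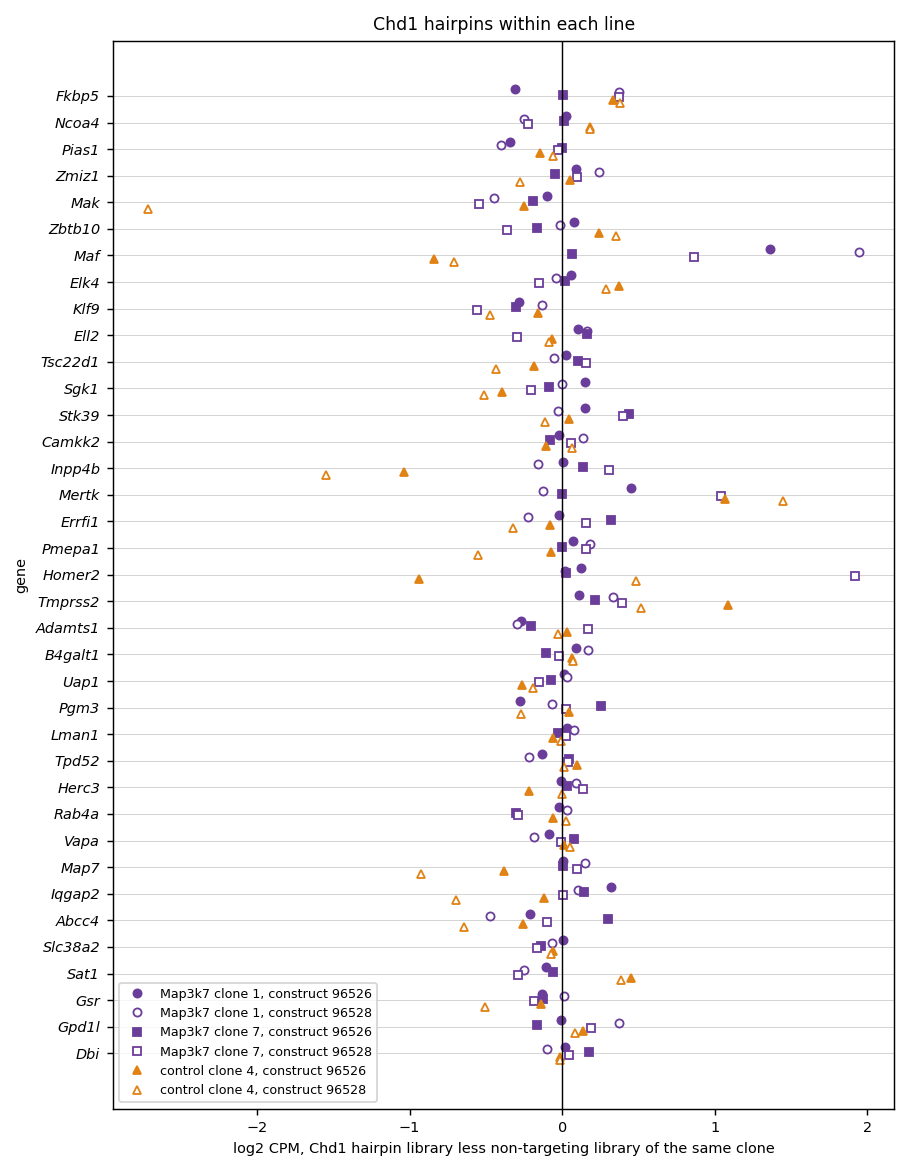
Log2 CPM of each library with a Chd1 hairpin less the library of the same clone with the non-targeting construct (x axis), for the 37 tested genes (rows); purple circles are Map3k7 clone 1, purple squares Map3k7 clone 7 and orange triangles control clone 4, filled for construct 96526 and open for 96528. Most points lie within 0.5 of 0, and the orange triangles of Inpp4b and Map7 lie left of the purple points.

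Between shDouble and shMap3k7, which share both clones, none of the 37 genes was called by edgeR, none reached an unadjusted p under 0.05, and DESeq2 and limma made 0 calls. Over all genes 0 were called and 115 reached an unadjusted p under 0.05 (0% called). Levels did not overlap for 2 genes, Maf and Mak (6.71% of all genes). Between shDouble and shChd1, which differ in line as well as in the Map3k7 hairpin, 22 of 37 were called, 13 up and 9 down (59.5%; 44.8% of all tested genes). Without shChd1 replicate 2 the count was 13. Levels did not overlap for 28 of the 37 (63.7% of all genes). The largest rises were Tmprss2 at a log2 fold change of 4.41 ± 0.84 (adjusted p = 0.00206), Mak at 3.86 ± 0.85, Inpp4b at 2.81 ± 0.30 (adjusted p = 0.000123), Map7 at 2.35 ± 0.29 (adjusted p = 0.000233) and Abcc4 at 1.97 ± 0.22 (adjusted p = 0.000149). The largest falls were Maf at -3.16 ± 0.69 (adjusted p = 0.00438, kept in all 16 alternatives, with 20 counts in the 4 shDouble libraries and 73 in the 2 shChd1 libraries), Mertk at the -2.54 given above, Camkk2 at -1.3 ± 0.15 (adjusted p = 0.000171), Iqgap2 at -1.27 ± 0.42 (adjusted p = 0.0301, lost without either shChd1 library or shDouble replicate 1 or 2, up to 0.213) and Zmiz1 at -1.20 ± 0.16 (adjusted p = 0.000322).

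The interaction asks whether the Chd1 hairpin changed a gene differently with and without the Map3k7 hairpin. By edgeR no gene was called among the 37 or among all tested genes (0%), with 7 of the 37 and 1998 of all genes at an unadjusted p under 0.05. DESeq2 called 3 of the 37, Inpp4b, Map7 and Tsc22d1, and 395 of all genes. The largest of these was Inpp4b at 1.84 ± 0.39 (adjusted p = 0.177 by edgeR, 0.000535 by DESeq2). Without shControl replicate 2, control clone 4, 1006 of all genes were called and 6 of the 37: Inpp4b, Map7, Mak, Sgk1, Tmprss2 and Tsc22d1. Both shChd1 libraries come from control clone 4, so without it the Chd1 difference also holds a difference between lines. With the line as a replicate block the interaction was 1.35 for Inpp4b, 0.70 for Map7, 0.78 for Mak and 0.42 for Sgk1. It was 0.36 for Tsc22d1 and -0.66 for Tmprss2, against 3.07 for Tmprss2 without control clone 4. The block made no call. In the edgeR fit of all libraries the interaction did not pass the threshold for any of these genes.

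Markers of epithelial state moved with several of these genes. Of all tested genes, 10.2% rose and 13.6% fell in shDouble against shControl, 4.86% and 7.08% in shMap3k7, and 0.662% and 2.24% in shChd1. Of 8 tested prostate luminal markers of 10 listed, 5 rose and 0 fell in shDouble, 2 rose and 0 fell in shMap3k7, and 0 rose and 4 fell in shChd1, all against shControl. Their summed level was 8420 to 8830 CPM in shDouble, 8630 to 8810 CPM in shMap3k7 and 1830 to 2060 CPM in shChd1, against 2790 to 6150 CPM in shControl, with control clone 4 the lowest control. Of the 37 androgen-responsive genes, 8 had both shChd1 libraries below all other libraries and control clone 4 as the lowest control (21.6%, against 13.2% of all tested genes): Mak, Tsc22d1, Sgk1, Inpp4b, Map7, Abcc4, Slc38a2 and Dbi. Of 5 tested fibroblast markers of 8 listed, 5 fell in shDouble and 3 in shMap3k7, with summed levels of 5.47 to 9.27 CPM in shDouble, 7.67 to 10.7 CPM in shMap3k7 and 128 to 134 CPM in shChd1, against 26.4 to 100 CPM in shControl. Of 8 tested basal and stem markers of 10 listed, 1 rose and 4 fell in shDouble, 1 rose and 1 fell in shMap3k7, and 2 fell in shChd1, with summed levels of 3640 to 4560 CPM in shDouble, 3910 to 4490 CPM in shMap3k7 and 2090 to 2100 CPM in shChd1, against 3040 to 5570 CPM in shControl. At 0 throughout were 2 of the 10 luminal markers, Pbsn among them, the fibroblast marker Lum, the immune marker Cd3e and 1 neuroendocrine marker. Smooth muscle, immune and neuroendocrine markers summed to at most 3.5, 0.22 and 0.325 CPM in any library. The part of these markers in the results was not tested.

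Chromosome-wide shifts were present in the lines. In shDouble against shControl the median log2 fold change was 0.39 on chromosome 19, which holds Klf9, 0.21 on chromosome 4, which holds B4galt1 and Errfi1, and -0.24 on chromosome 7, which holds Homer2. Both genes on chromosome 4 fell, opposite in sign to its median. Chromosome 14, with Abcc4, Zmiz1, Ncoa4 and Tsc22d1, had a median of 0.12, and chromosome 8, with Inpp4b, Maf, Rab4a and Gsr, 0.13. In shChd1 against shControl chromosome 10, with Map7 and Sgk1, had a median of -0.23. The part of copy number in these medians was not tested.

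Nr3c1, the glucocorticoid receptor, was at 63.1 to 75.4 CPM in shDouble, 58.0 and 69.5 CPM in shMap3k7 and 61.0 and 66.1 CPM in shChd1, against 58.1 to 63.0 CPM in shControl, with no call (shDouble log2 0.19 ± 0.09, adjusted p = 0.165).

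Of 8 tested genes in a list of 13 for androgen signalling and metabolism, none was called in shMap3k7 or shChd1. The shares of all genes called there were 11.9% and 2.91%. In shDouble 1 of the 8 rose (10.2% of all genes rose). That gene was Foxa1, at 7.03 to 8.93 CPM in shDouble and 8.13 and 7.32 CPM in shMap3k7, against 3.43 to 5.66 CPM in shControl (shDouble log2 0.87 ± 0.24, adjusted p = 0.0259, lost without shControl replicate 1 or 2 or shDouble replicate 1 or 2, adjusted p up to 0.0866). Srd5a1, the reductase that makes dihydrotestosterone, was at 16.5 to 22.6 CPM in shDouble against 10.3 to 16.0 CPM in shControl (log2 0.49 ± 0.17, adjusted p = 0.066). Srd5a3, a related reductase, was at 10.6 to 13.5 CPM in shDouble against 14.5 to 18 CPM in shControl (log2 -0.43 ± 0.16, adjusted p = 0.0796).

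Of 11 chaperones of steroid receptors, all tested, 3 rose in shDouble, 3 rose in shMap3k7 and 2 fell in shChd1, with median log2 fold changes of 0.18, 0.27 and -0.27. Over all genes 10.2% rose in shDouble, 4.86% rose in shMap3k7 and 2.24% fell in shChd1. Stip1, which links HSP70 to HSP90, was at 504 to 579 CPM in shDouble and 590 and 516 CPM in shMap3k7, against 362 to 404 CPM in shControl. It rose by 0.52 ± 0.09 on the log2 scale in shDouble (adjusted p = 0.00279) and by 0.55 ± 0.10 in shMap3k7 (adjusted p = 0.0103, lost without shMap3k7 replicate 1, up to 0.109). Hspa4, an HSP70 nucleotide exchange factor, rose by 0.40 ± 0.08 in shDouble (adjusted p = 0.00764), and the HSP40 protein Dnaja1 by 0.25 ± 0.07 (adjusted p = 0.0213, lost without shControl replicate 2 or shDouble replicate 4, up to 0.0731). Hsp90ab1, an HSP90 that holds unliganded steroid receptors, was called in shMap3k7 (log2 0.33 ± 0.09, adjusted p = 0.0321, lost without either shMap3k7 or either shChd1 library or without shControl replicate 1 or 2, up to 0.199), not in shDouble (0.21 ± 0.07, adjusted p = 0.0535). In shChd1 the 2 that fell, named after their values were seen, were Hspa8 (log2 -0.53 ± 0.12, adjusted p = 0.047) and the immunophilin Fkbp4 (log2 -0.47 ± 0.10, adjusted p = 0.0448). Each of these calls was kept in 5 of 17 alternatives, and lost with the line as a replicate block, in a fit of the compared groups alone and without any library but shControl replicate 2 (adjusted p up to 0.437 and 0.426).

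Over all tested genes 10.2% rose and 13.6% fell in shDouble, 4.86% rose and 7.08% fell in shMap3k7, and 2.91% were called in shChd1. Of 19 listed receptor coregulators outside the set, 1 rose and 1 fell in shDouble and none was called in shMap3k7 or shChd1. The demethylase Kdm1a rose by 0.42 ± 0.11 on the log2 scale (adjusted p = 0.0179), and the coactivator Ncoa1 changed by -0.54 ± 0.11 (adjusted p = 0.00614). Of 6 tested other steroid and partner receptors, 3 fell in shDouble: Esr1 (log2 -0.83 ± 0.24, adjusted p = 0.031), Rxra (-0.38 ± 0.12, adjusted p = 0.0442) and Vdr (-0.63 ± 0.20, adjusted p = 0.0442). Each of these calls was lost without 1 of 5 or more libraries, among them shControl replicate 2 and shDouble replicates 1, 3 and 4 (adjusted p up to 0.101, 0.168 and 0.18). Of 14 tested glucocorticoid-induced genes of 16 listed, none rose and 4 fell in shDouble, 3 fell in shMap3k7 and none was called in shChd1, with median log2 fold changes of -0.35, -0.34 and -0.19. The largest fall was Cebpd, a C/EBP transcription factor that inflammation also induces, at 8.56 to 14.7 CPM in shDouble and 14.5 and 17.6 CPM in shMap3k7, against 97.9 to 119 CPM in shControl (shDouble log2 -3.06 ± 0.18, adjusted p = 1.05e-05). Angptl4 (log2 -1.25 ± 0.31, adjusted p = 0.0151, and 0.0567 without shControl replicate 1), a lipase inhibitor, Nfkbia (-0.59 ± 0.14, adjusted p = 0.0156), the NF-kB inhibitor, and Glul (-2.54 ± 0.65, adjusted p = 0.0194), glutamine synthetase, also fell in shDouble. Glul was at 84.0 CPM in control clone 4 against 9.51 and 12.5 CPM in the other shControl libraries, and without that clone its shDouble value was -0.85 (adjusted p = 0.0709), and the call was also lost without shDouble replicate 4.

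**Figure D5:**
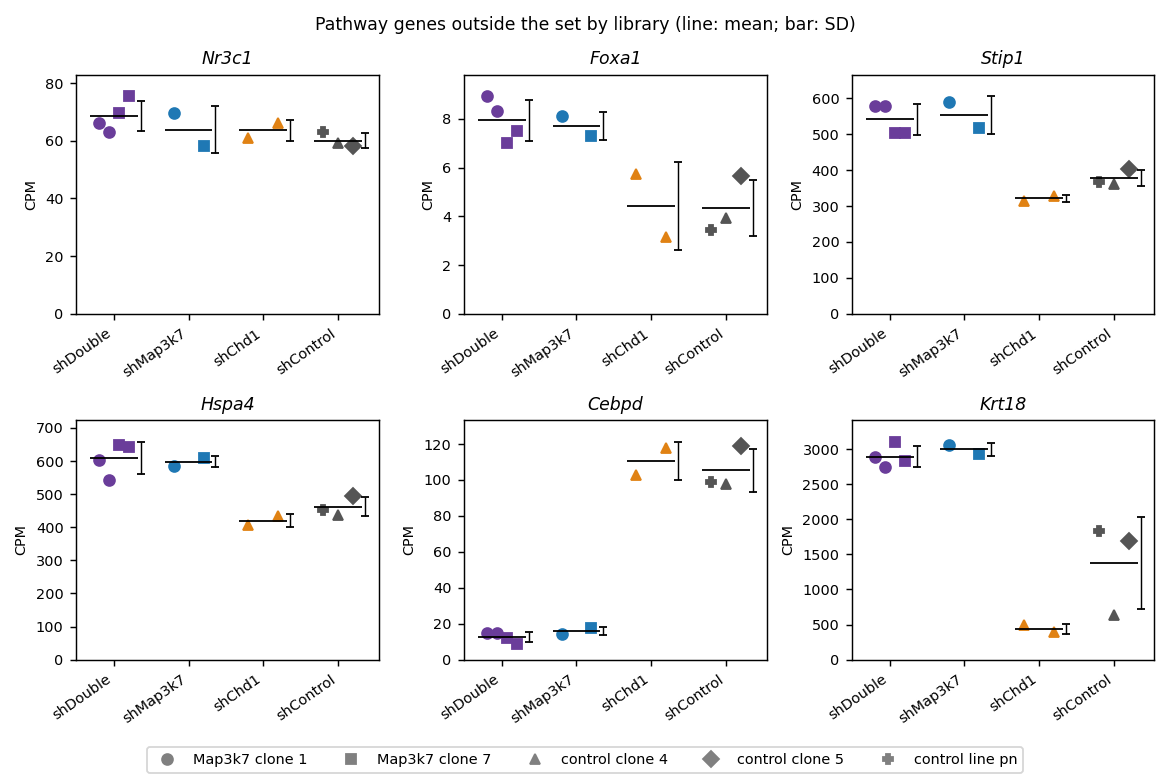
Levels by library, in CPM from 0, of the glucocorticoid receptor Nr3c1, the pioneer factor Foxa1, the chaperones Stip1 and Hspa4, the glucocorticoid-induced gene Cebpd and the luminal keratin Krt18 in shDouble, shMap3k7, shChd1 and shControl; points are libraries, shaped by line, horizontal lines group means and bars SD. Cebpd lies between 8.56 and 17.6 in the Map3k7 clones and between 97.9 and 119 in shControl, while Nr3c1 overlaps between those groups.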

How the data were processed

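The data are 11 RNA sequencing libraries of WFU3 cells, 4 shDouble, 2 shMap3k7, 2 shChd1 and 3 shControl, grouped by the labels. The authors deposited expected counts per gene, from reads processed with Bowtie2 and RSEM 1.3.1 on GRCm38, per the submitters' processing notes. Which annotation and strand setting were used is not given in the sources used here, so reads of overlapping or antisense genes cannot be told apart. Between 7.83% and 9.11% of the values in a library were not whole, and all were rounded. The authors also deposited a table of log2 values for 17966 genes, and limma is named in the submitters' processing notes. Each library of that table departed from log2(count + 0.5) by a constant to within 9.96e-09, over 17946 shared genes, and it served only an alternative fit with limma.

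Genes were kept with edgeR's filterByExpr (minimum count 10, minimum total 15), which left 14346 genes; those dropped held at most 0.117% of the counts in any library. Libraries were scaled by TMM. edgeR 4.0.16 in R 4.3.3 fitted a mean for each of the 4 groups to all 11 libraries, and its quasi-likelihood F-test gave 6 comparisons, with Benjamini-Hochberg adjustment over all 14346 genes. The threshold for a call was an adjusted p of 0.05, whatever the size of the change, and ± after a log2 fold change is its standard error. The functions were tested on simulated counts. Totals of 14132371 to 23163709 counts make 3 counts equal 0.133 to 0.217 CPM, and counting intervals at 95% cover counting error only.

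Alternatives were DESeq2's size factors, the Wald test of DESeq2 1.42.0, limma 3.58.1 on the deposited log2 values, no filter on low counts, a fit of the compared groups alone, each library left out in turn, and, where groups share lines, the line as a replicate block. The labels tie shDouble to shMap3k7 and shChd1 to control clone 4 by line. Clone 1 less clone 7 correlated at r = 0.571 across 14346 genes between the shMap3k7 and shDouble libraries; the genes are not independent replicates. Genes were named as all 39 members, with values by library for those called in any comparison, the targeted genes, the glucocorticoid receptor, and up to 4 genes with the smallest adjusted p of each pathway list. The members, their roles and all lists were chosen with earlier results of these data known. Gene positions are from GENCODE on GRCm38 and promoters from RefSeq on GRCm38.p6. Some genes of the lists are not reported here.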

Additional observations from a re-analysis of the deposited data

Results flagged for a closer look

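The 4 shDouble libraries had 181, 170, 172 and 171 CPM of Tpd52. The gap between replicate 1 and its nearest neighbour took up 0.877 of the range, above Dixon's 95% critical value for 4 samples. This range of 170 to 181 CPM is narrow beside the 108 to 160 CPM of shControl. The test was applied in shDouble, the group with 4 libraries, to 59 named genes, 37 of them androgen-responsive, and 1 of the 59 exceeded the critical value. Chance alone takes about 5% of groups past it, more than was seen.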

How the results depend on the processing

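Of 92 called results for the androgen-responsive, targeted and pathway genes, with 1476 alternative values, 1214 kept their call, 262 lost it and 0 reversed direction. Results not called in the main fit are outside this tally, as are calls gained only in an alternative. Among them, Homer2 in shDouble went from -0.93 to 4.11 without shControl replicate 1. Tmprss2 in shChd1 went from -2.27 to 0.92 with the line as a replicate block. The number of androgen-responsive genes called in shMap3k7 was 3 in a fit of the compared groups alone and 3 to 12 with a library left out. In shDouble it was 10 in a fit of the compared groups alone and 11 to 15 with a library left out. In shChd1 it was 6 by DESeq2's Wald test, 5 with no filter on low counts, 0 in a fit of the compared groups alone and 0 to 9 with a library left out, 9 being without shControl replicate 2. Between shDouble and shChd1 it was 13 to 25 with a library left out, 13 being without shChd1 replicate 2. The interaction gave 3 by DESeq2's Wald test, 1 with no filter and 0 to 6 with a library left out, 6 being without shControl replicate 2. With the line as a replicate block, shChd1 kept 1 call, and the interaction and shDouble against shMap3k7 had 0. The block also ended the shChd1 calls of Chd1 (-0.40, adjusted p = 0.134), Hspa8 and Fkbp4 and changed no other call of a named gene; it cannot be fitted where groups share no line. Over all genes the shMap3k7 count of 1712 was 227 in the compared groups alone, 2599 by the Wald test and 244 without shMap3k7 replicate 1. The shChd1 count of 417 was 1715 by the Wald test, 684 with no filter, 142 with the block, 0 in the compared groups alone and 2650 without shControl replicate 2. The interaction count of 0 was 395 by the Wald test, 31 with no filter, 11 with the block and 1006 without shControl replicate 2. The shDouble count of 3413 was 2177 without shControl replicate 2, and the 6426 genes between shDouble and shChd1 were 4187 and 3649 without shChd1 replicate 1 and 2. Fits with fewer libraries or fewer groups have fewer residual degrees of freedom. Without shControl replicate 2, which is the clone of both shChd1 libraries, the shChd1 and interaction counts were higher. The causes of these changes in the counts were not tested. Depth limits Maf, Mertk, Homer2, Azgp1 and Zbtb16, which had under 3 counts in at least 1 library.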
